A study of Mus musculus with 6 samples.

Results

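The 7 genes described here are Meis1, Meis2, Pbx2, Pbx3, Pbx4, Pknox1 and Pknox2, which encode homeodomain partners of Hox proteins, among 27623 genes named on a whole-genome expression array of cultured mouse embryonic kidneys. All non-control probes that carry the name of a member were taken, which gave 13 probes of 6 genes. Meis2 stands on this array under its older name Mrg1, and 3 further probes belong to it. Accession matches to the Meis2 mRNA named 2 of those 3, and the other shares their array name. Of the 16 probes, 15 were bright enough to be tested. The remaining probe, the dimmest of 3 for Pknox2, was not well above background on any array.

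Kidney rudiments of CD1 mouse embryos at E13.5 (embryonic day) were cultured on filters and treated for 6 hours with 1 of 2 drugs. Scriptaid, an inhibitor of histone deacetylases (HDACs), was given at 2.0 µg/ml, and Nullscript, a structurally related compound used as the control drug, at the same dose and for the same time. Per the labels, the kidneys of a pair were split between the drugs, so the groups share strain and age. The sample sources name no mutation, and the tissue is taken as wild type. Each of 3 numbered biological replicates was hybridised on 2 two-colour arrays with the dyes exchanged, which makes 6 arrays. They are 3 arrays with the dye Cy5 on the RNA labelled Scriptaid (Scriptaid-Cy5 arrays) and 3 with Cy3 on it (Scriptaid-Cy3 arrays). The series text instead speaks of 4 arrays, 2 of them dye-swapped, and the replicate numbers used here are those of the sample labels. The sources used here do not give the number of kidneys per replicate. The p-values rest on the spread between these 3 replicates, which limma moderates toward a value pooled over all probes tested.

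Meis, Pknox and Pbx proteins belong to the TALE class of homeodomain transcription factors, named for extra residues in a loop of the homeodomain. A Meis or Pknox protein binds a Pbx protein, which is then held in the nucleus, and such pairs join Hox proteins on DNA and sharpen their choice of site. In the developing kidney, Meis1 is known from the stroma around the nephron progenitors and Hox11 paralogues act in the mesenchyme that induces the ureteric bud.

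Promoters are shown for the members that differed most in each direction, as the sequence next to a RefSeq transcript start. RefSeq promoter windows on build GRCm38.p6 were available for 4 of the 7 genes (Meis1, Meis2, Pbx2 and Pbx4), and the 250 bases before the transcript start that each window gives were searched on both strands. The annotated gene can reach further upstream than that start. The Pbx2 window ends where its gene begins, the Pbx4 window runs into its gene, and those of Meis1 and Meis2 lie wholly inside theirs. Bases that lie inside the annotated gene are not printed. The Pbx2 window is chr17:34592009-34592258 on the plus strand, and the Pbx4 stretch is chr8:69832374-69832475 on the plus strand. Capitals mark a GC box (GGGCGG on either strand) in Pbx2 and a CCAAT box (CCAAT on either strand) in Pbx4.
Pbx2: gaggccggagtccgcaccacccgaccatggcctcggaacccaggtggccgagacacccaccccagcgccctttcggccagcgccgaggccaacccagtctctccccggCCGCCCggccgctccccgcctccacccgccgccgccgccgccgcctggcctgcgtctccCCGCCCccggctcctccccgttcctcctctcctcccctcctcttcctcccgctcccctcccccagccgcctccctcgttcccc
Pbx4: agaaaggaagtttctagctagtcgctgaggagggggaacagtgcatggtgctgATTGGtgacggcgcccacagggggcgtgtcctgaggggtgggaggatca
The Pbx2 window holds 27 CpG dinucleotides and is 77.6% G or C, and 91.4% of 32851 mouse promoter windows hold fewer CpG. Its 2 GC boxes lie 142 and 83 bases before the start, and 32.7% of all windows hold that motif. The Pbx4 window holds 12 CpG and is 55.6% G or C, with CCAAT boxes 197 and 30 bases before the window's transcript start. The nearer box lies inside the annotated gene, in the part not printed. That motif occurs in 33.8% of all windows, and also once each in the windows of Meis1 (54 bases before the window's transcript start) and Meis2 (210 bases before it), where both lie inside the annotated gene. The median over all promoters was 6 CpG, against 13 for Meis1 and 7 for Meis2. The letters of a Meis or Pknox site (TGACAG, in 15.9% of all windows) and of a Pbx and Hox site (TGATNNAT, in 7.68%) were in none of the 4 windows. These matches describe the letters alone.

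Genes known from other cells to respond to HDAC inhibitors went against the labels, so samples are called by their label throughout. All 5 genes that rise with such drugs elsewhere were higher in the Nullscript-labelled channel, with log2 ratios of -1.72 to -0.91, among them the linker histone gene H1f2 (-1.72 ± 0.06, SD, n = 3). All 4 genes that fall with such drugs elsewhere were higher in the Scriptaid-labelled channel, with log2 ratios of 0.59 to 1.90, among them the cyclin gene Ccnd1 (1.90 ± 0.19, SD, n = 3). Both lists were drawn up with earlier results of these data known, so they are not an independent check. Which drug each channel held is not settled, and if the names were exchanged every sign given here would turn. Between 91.5% and 96.5% of spots were well above background per channel. Replicate 3 was on a slide of its own, and replicates 1 and 2 were on another. Markers of nephron progenitors (7 of 7), stroma (8 of 8) and ureteric bud (8 of 8) were well above background in both channels on all arrays. So were those of neurons (7 of 7), endothelium (6 of 6), red blood cells (5 of 5) and macrophages (4 of 4). Since most spots pass this criterion, it does not check the tissue label.

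Of the 7 genes, 4 were higher in the Scriptaid-labelled channel (Meis1, Meis2, Pbx2 and Pbx3), 2 were higher in the Nullscript-labelled channel (Pbx4 and Pknox1), and Pknox2 did not pass the test. The test was limma's moderated test of the mean log2 ratio over 3 replicates, with the call at an adjusted p under 0.05 after Benjamini-Hochberg adjustment over all 39392 probes tested. A gene is represented by its brightest probe. The 6 calls make 85.7% of the members, against 45.4% of the 26444 genes tested, with 22.2% called at a positive ratio (higher in the Scriptaid-labelled channel) and 23.2% at a negative one. The members' median log2 ratio was 0.33, with a range of -1.11 to 0.96, against a median of -0.01 over all genes tested. By probe, 11 of 15 (73.3%) passed, 8 with a positive ratio and 3 with a negative one, against 45.2% of all probes tested (23.5% positive and 21.8% negative). Only Pbx4 was past a 2-fold difference. The median size of a called log2 ratio on these arrays was 0.34. The kidney rudiment is a mixed tissue, in which fewer cells of a type and less RNA per cell cannot be told apart.

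**Figure D1:**
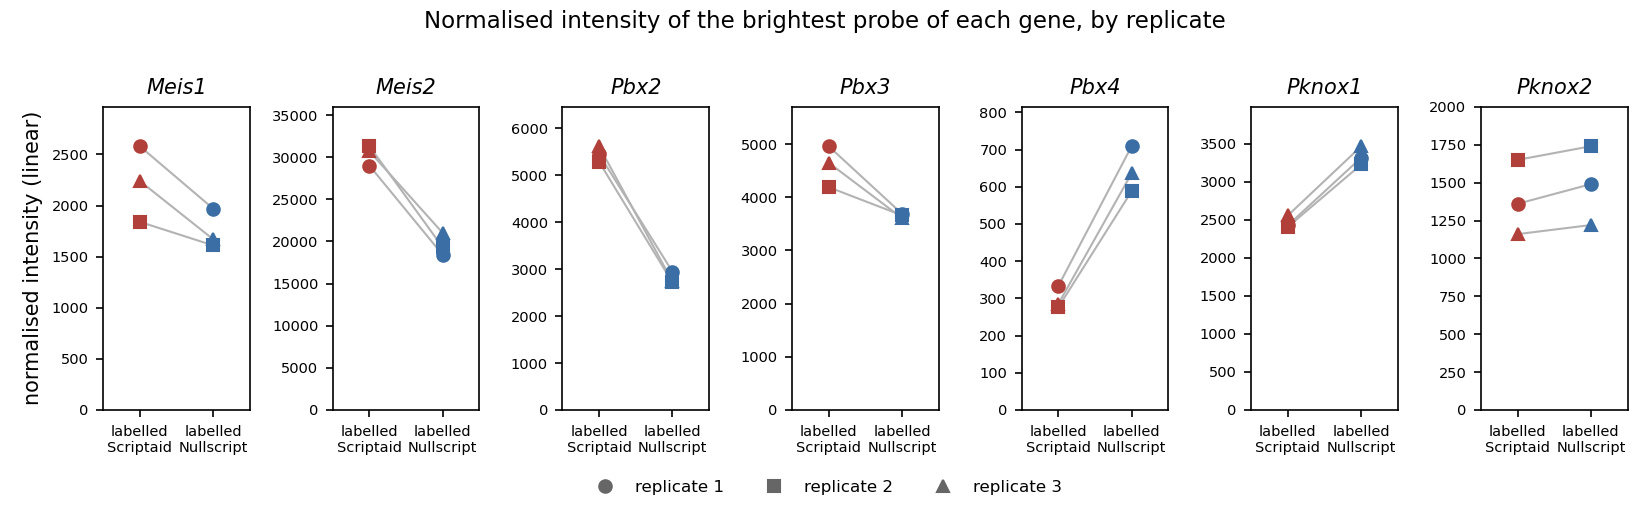
Normalised intensity (linear scale) of the brightest probe of each gene in the channels labelled Scriptaid (left, red) and Nullscript (right, blue), with a marker shape and a grey line for each of the 3 replicates. The 3 lines fall to the right for Meis1, Meis2, Pbx2 and Pbx3 and climb to the right for Pbx4, Pknox1 and Pknox2 (each panel has its own axis), and the replicates of the 2 channels overlap for Meis1 and Pknox2.

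Pbx2, a broadly expressed Pbx protein that can bind both Meis and Hox partners, had the highest ratio of the 7. Its brightest probe read 5450, 5290 and 5620 normalised intensity units in the Scriptaid-labelled channel, against 2950, 2720 and 2740 in the Nullscript-labelled channel. The lowest reading labelled Scriptaid was far above the highest labelled Nullscript. The log2 ratios were 0.89, 0.96 and 1.04 in replicates 1, 2 and 3, with a mean of 0.96 ± 0.07 (SD, n = 3), 1.95-fold (limma, adjusted p = 0.000219). Over the 6 arrays the ratio lay between 0.82 and 1.09, and 97.0% of tested probes had a smaller ratio in size. The dimmer Pbx2 probe, drawn from the same mRNA, read 495, 403 and 431 units in the Scriptaid-labelled channel, against 317, 231 and 234 in the Nullscript-labelled channel. It did not overlap between the channels either. Its mean log2 ratio was 0.77 ± 0.12 (SD, n = 3; limma, adjusted p = 0.000508), lower than that of the brighter probe by 0.19 ± 0.05 (SD of the paired difference, n = 3).

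Meis2, a Meis protein found in mesenchyme of many embryonic organs, was higher in the Scriptaid-labelled channel by all 3 of its probes. The brightest read 29000, 31300 and 30700 units in the Scriptaid-labelled channel, against 18400, 19300 and 21000 in the Nullscript-labelled channel. The channels did not overlap, and the mean log2 ratio was 0.63 ± 0.08 (SD, n = 3; replicates 0.66, 0.70 and 0.55), 1.55-fold (limma, adjusted p = 0.000422). The second probe read 23200, 21100 and 25000 units in the Scriptaid-labelled channel, against 15200, 14600 and 18100 in the Nullscript-labelled channel. The third was drawn from a different cDNA and was placed with Meis2 by its array name alone. It read 837, 631 and 838 units in the Scriptaid-labelled channel, against 522, 463 and 608 in the Nullscript-labelled channel. Neither probe overlapped between the channels. Both averaged 0.53 on the log2 scale, with SDs of 0.07 and 0.13 (n = 3; limma, adjusted p = 0.000557 and 0.00169). The 3 probes differed from each other by 0.00 to 0.10, of which the difference of 0.10 ± 0.06 (SD, n = 3) between the first and second was the only mean larger than its SD.

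A single Meis2 probe of the 3 differed in size between the dye orientations, with the same sign in both. On the Scriptaid-Cy5 arrays the second Meis2 probe averaged 0.75, against 0.32 on the Scriptaid-Cy3 arrays. That difference of 0.43 was the only member difference between the dye orientations that passed (limma, adjusted p = 0.0207). Of all probes tested for it, 3.82% passed. The call was lost without replicate 1, without replicate 3 and with the processed signals of the scanner software. The brightest Meis2 probe averaged 0.79 on the Scriptaid-Cy5 arrays and 0.48 on the Scriptaid-Cy3 arrays (adjusted p = 0.0776), and the dimmest lay the other way round, at 0.43 and 0.63 (adjusted p = 0.221). All 18 Meis2 ratios, 3 probes on each of 6 arrays, were above 0, and ranged from 0.18 to 0.83.

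Meis1, the founding member of the Meis genes and a stromal factor in the kidney, was higher in the Scriptaid-labelled channel by a smaller margin. Its brighter probe read 2580, 1840 and 2240 units in the Scriptaid-labelled channel, against 1970, 1610 and 1670 in the Nullscript-labelled channel. The channels overlapped, since replicate 2 labelled Scriptaid read lower than replicate 1 labelled Nullscript, but within every replicate the Scriptaid-labelled channel was higher. The mean log2 ratio was 0.33 ± 0.13 (SD, n = 3; replicates 0.38, 0.19 and 0.43), 1.26-fold (limma, adjusted p = 0.00705). The dimmer probe read 529, 373 and 429 units in the Scriptaid-labelled channel, against 406, 330 and 336 in the Nullscript-labelled channel, and averaged 0.30 ± 0.11 (SD, n = 3; limma, adjusted p = 0.00667). The probes differed by 0.03 ± 0.04 (SD, n = 3), and both had their lowest ratio in replicate 2. Without replicate 3 the ratio was 0.29 and the call was lost (adjusted p = 0.0509), and that is also the comparison within the slide shared by replicates 1 and 2.

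Pbx3, a Pbx protein known from neural and limb development, passed by its brightest probe alone. The brightest, drawn from its RefSeq mRNA, read 4960, 4190 and 4650 units in the Scriptaid-labelled channel, against 3690, 3660 and 3610 in the Nullscript-labelled channel. These did not overlap, and the mean log2 ratio was 0.33 ± 0.12 (SD, n = 3; replicates 0.42, 0.20 and 0.37), 1.26-fold (limma, adjusted p = 0.0061). The second probe, drawn from a cDNA clone, read 173, 187 and 152 units in the Scriptaid-labelled channel, against 179, 199 and 158 in the Nullscript-labelled channel. Its log2 ratio of -0.07 ± 0.02 (SD, n = 3) had the other sign and did not pass (limma, adjusted p = 0.133). The third, from a different cDNA clone, read 106, 92.5 and 102 units in the Scriptaid-labelled channel, against 93.8, 92.1 and 86.9 in the Nullscript-labelled channel. Its ratio of 0.14 ± 0.12 (SD, n = 3) did not pass either (limma, adjusted p = 0.0893), and both dim probes overlapped between the channels.

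The first and second Pbx3 probes differed by 0.40 ± 0.09 (SD, n = 3), more than the replicates of either. Averaged over its probes the Pbx3 ratio was 0.13 (limma, adjusted p = 0.0428). Without replicate 3 the brightest probe stood at 0.31 and no longer passed (adjusted p = 0.0521). On the Scriptaid-Cy3 arrays alone it stood at 0.21 and did not pass (adjusted p = 0.0597).

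Pbx4, the Pbx member known mainly from testis in mouse, stood at the other end. Its brighter probe read 333, 276 and 285 units in the Scriptaid-labelled channel, against 709, 588 and 636 in the Nullscript-labelled channel. The channels were widely separated, and the log2 ratios of -1.09, -1.09 and -1.16 averaged -1.11 ± 0.04 (SD, n = 3), 2.16-fold higher in the Nullscript-labelled channel (limma, adjusted p = 0.000204). The 6 arrays gave -1.17 to -1.05, and 98.2% of tested probes had a smaller ratio in size. The dimmer probe, drawn from the same mRNA, read 220, 224 and 220 units in the Scriptaid-labelled channel, against 308, 305 and 295 in the Nullscript-labelled channel. It did not overlap either, and its ratio of -0.45 ± 0.03 (SD, n = 3; limma, adjusted p = 0.00048) had the same sign. The brighter probe was lower than the dimmer by 0.66 ± 0.06 on the log2 scale (difference -0.66, SD, n = 3), the widest gap between probes of a member. Averaged over both, the Pbx4 ratio was -0.78.

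Pknox1, which is needed in mouse for the formation of blood and vessels, had a single probe. It read 2430, 2410 and 2560 units in the Scriptaid-labelled channel, against 3320, 3230 and 3470 in the Nullscript-labelled channel. All readings labelled Scriptaid were below all readings labelled Nullscript. The log2 ratios of -0.45, -0.42 and -0.44 averaged -0.44 ± 0.01 (SD, n = 3), 1.35-fold higher in the Nullscript-labelled channel (limma, adjusted p = 0.000459). The 6 arrays ranged from -0.55 to -0.29, with -0.52 on the Scriptaid-Cy5 arrays and -0.36 on the Scriptaid-Cy3 arrays (adjusted p of the difference = 0.15).

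Pknox2, the paralogue of Pknox1 with a narrower range of tissues, did not pass by either tested probe. The brightest read 1360, 1650 and 1160 units in the Scriptaid-labelled channel, against 1490, 1740 and 1220 in the Nullscript-labelled channel. The replicates differed more from each other than the channels did, although the Scriptaid-labelled channel was lower in each. The log2 ratio was -0.09 ± 0.03 (SD, n = 3; limma, adjusted p = 0.0646). The second probe read 1010, 1240 and 1190 units in the Scriptaid-labelled channel, against 1080, 1280 and 1240 in the Nullscript-labelled channel, with a ratio of -0.07 ± 0.02 (SD, n = 3; adjusted p = 0.132). Its array ratios were above 0 on the 3 Scriptaid-Cy3 arrays (mean 0.03) and below 0 on the 3 Scriptaid-Cy5 arrays (mean -0.16), a difference that did not pass (adjusted p = 0.0878). With the replicate as a block over all 6 arrays, the brightest probe passed at the same ratio of -0.09 (limma, adjusted p = 0.0367), and it also passed with the processed signals of the scanner software (-0.13, adjusted p = 0.0476).

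**Figure D2:**
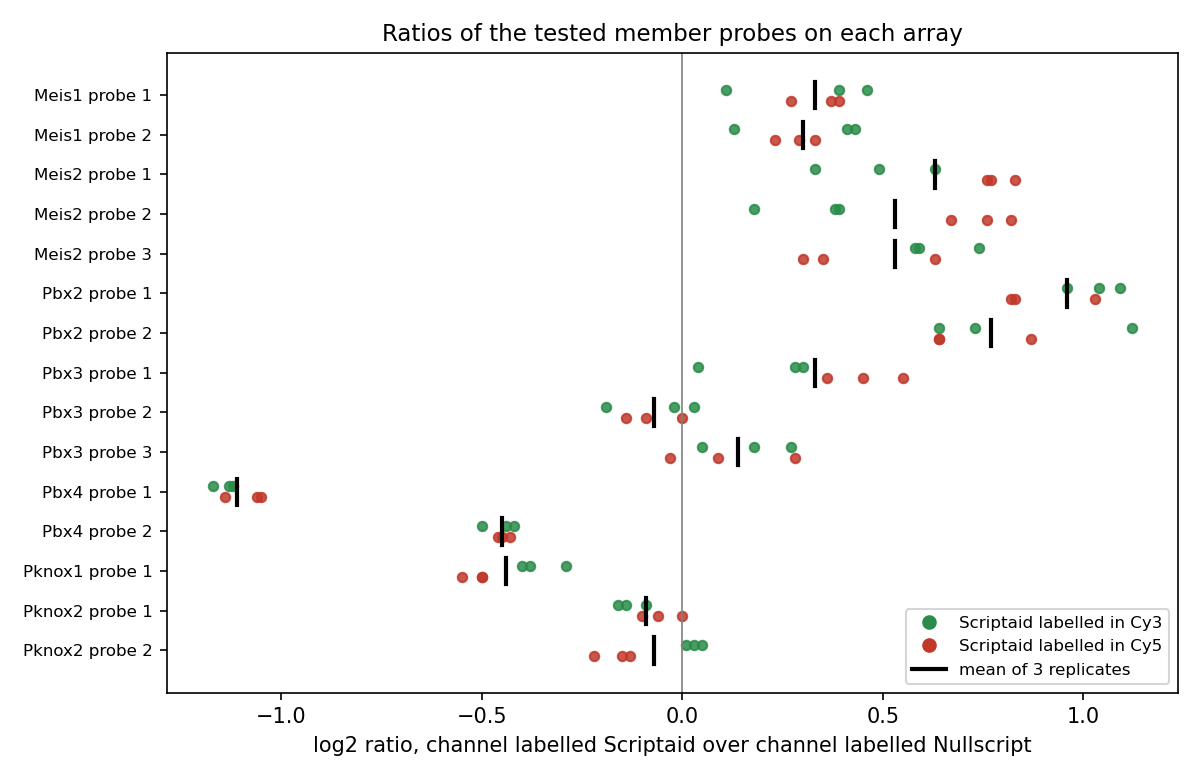
Log2 ratio (Scriptaid-labelled over Nullscript-labelled channel) for the 15 tested probes (rows) on each of the 6 arrays, in green where Scriptaid was labelled in Cy3 and in red where it was labelled in Cy5; black bars are means of 3 replicates. All 6 points lie above 0 for 8 probes and below 0 for 3, and 4 probes of Pbx3 and Pknox2 have arrays on both sides of 0.

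The probes that passed were those whose arrays shared a sign, a match largely built in, since the test averaged the same arrays. All 6 arrays were above 0 for the 8 probes of Meis1, Meis2, Pbx2 and the brightest Pbx3 probe, and below 0 for the 3 probes of Pbx4 and Pknox1. The 2 dim Pbx3 probes and the 2 tested Pknox2 probes had arrays on both sides. Replicate readings of the channels did not overlap for 9 of 15 member probes, against 32.8% of all tested probes. Of the 7 further probes of the called genes, 6 had the sign of the brightest. No member probe was saturated on any array, and 14 of 15 were well above background in both channels on all arrays.

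In order of the log2 ratio, the members ran Pbx2, Meis2, Meis1, Pbx3, Pknox2, Pknox1 and Pbx4. Neighbours differed in the same direction in all 3 replicates at each step but that between Meis1 and Pbx3. Pbx2 was above Meis2 by 0.33 ± 0.14, Meis2 above Meis1 by 0.30 ± 0.19 and Pbx3 above Pknox2 by 0.42 ± 0.14 (SD of the paired difference, n = 3). Meis1 and Pbx3 differed by 0.00 ± 0.05 (SD, n = 3), within their spread. Pknox2 was above Pknox1 by 0.34 ± 0.02, and Pknox1 above Pbx4 by 0.68 ± 0.04 (SD, n = 3). Pbx members thus held both ends of the order, and the Meis members were both higher in the Scriptaid-labelled channel.

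**Figure D3:**
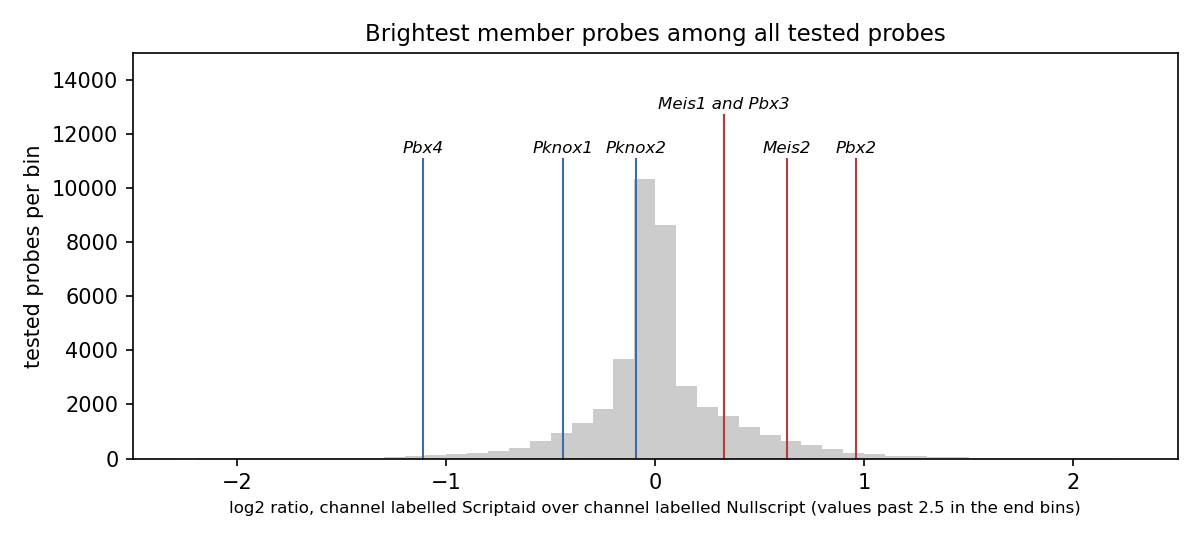
Histogram of the log2 ratio (Scriptaid-labelled over Nullscript-labelled channel) of all 39392 tested probes, with vertical lines at the brightest probe of each member. Pbx4 (-1.11) and Pbx2 (0.96) lie in the outer parts of the distribution, and Pknox2 (-0.09) lies at its peak.

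Relatives of the members in the TALE class were counted as a list. Of 11 such genes, 5 were higher in the Scriptaid-labelled channel and 1 in the Nullscript-labelled channel. That is 54.5% called, against 45.4% of all genes tested. Their median log2 ratio was 0.13, with a range of -0.67 to 1.20. The Smad corepressor genes Tgif1 (1.20 ± 0.19, adjusted p = 0.000448) and Tgif2 (0.58 ± 0.02, adjusted p = 0.000275) were higher in the Scriptaid-labelled channel (SD, n = 3; limma). Mkx, a tendon factor, was higher in the Nullscript-labelled channel at -0.67 ± 0.02 (SD, n = 3; limma, adjusted p = 0.000231). Meis3 had a ratio of 0.13 and did not pass (limma, adjusted p = 0.143).

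Hox genes encode the proteins that members of these families accompany on DNA. Of 38 tested, 16 were higher in the Scriptaid-labelled channel and 8 in the Nullscript-labelled channel, with a median of 0.08. The share called was 63.2%, against 45.4% of all genes tested. Hoxd1, an anterior Hox gene, was higher in the Nullscript-labelled channel at -1.37 ± 0.20 (SD, n = 3; limma, adjusted p = 0.000357). Hoxa11, which acts in metanephric mesenchyme, was higher in the Scriptaid-labelled channel at 1.12 ± 0.29 (SD, n = 3; limma, adjusted p = 0.00137). Hoxb2 was at 1.46 ± 0.05 (SD, n = 3; limma, adjusted p = 0.000181) by its brighter probe, while the other probe gave 0.07.

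Of 10 genes listed as partners and regulators of TALE or Hox proteins, 4 were higher in the Scriptaid-labelled channel and 4 in the Nullscript-labelled channel. Their median was 0.03, and 80% were called, against 45.4% of all genes tested. Eya1, a transcription cofactor of nephron progenitors, was at 1.64 ± 0.18 (SD, n = 3; limma, adjusted p = 0.000233), with 0.48 by its other probe. The deacetylase gene Hdac1 was at -0.83 ± 0.07 (SD, n = 3; limma, adjusted p = 0.000243). The acetyltransferase genes Crebbp (1.01 ± 0.11, adjusted p = 0.000269) and Ep300 (0.69 ± 0.13, adjusted p = 0.000716) were higher in the Scriptaid-labelled channel by their brightest probes (SD, n = 3; limma). Their other probes gave 0.05 to 0.20 for Crebbp and 0.04 to 0.09 for Ep300.

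Genes listed as targets of Meis, Pbx or Hox proteins, chiefly from other tissues, went both ways. Of 13 tested, 4 were higher in the Scriptaid-labelled channel and 5 in the Nullscript-labelled channel, with a median of -0.08. The share called was 69.2%, against 45.4% of all genes tested. The cyclin-dependent kinase inhibitor genes Cdkn2b (-1.43 ± 0.06, adjusted p = 0.000185) and Cdkn1a (-0.91 ± 0.16, adjusted p = 0.000546) were higher in the Nullscript-labelled channel (SD, n = 3; limma). Cdkn1a is also among the drug response genes above. Hif1a, the hypoxia factor gene that Meis1 regulates in blood stem cells, was at 0.61 ± 0.23 (SD, n = 3; limma, adjusted p = 0.00469). The ephrin receptor gene Epha2 was at -0.59 ± 0.22 (SD, n = 3; limma, adjusted p = 0.00503).

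The genes whose 6 array ratios lay nearest to those of Pbx4 and Pbx2 were found among 17736 named genes by the root mean square difference of the log2 ratios. For Pbx4 they were Agfg2 (0.04, mean ratio -1.10), Clba1 (0.05, mean ratio -1.13) and Gca (0.07, mean ratio -1.13). For Pbx2 they were Lamtor1 (0.05, mean ratio 1.00), Numa1 (0.08, mean ratio 0.96) and Trib1 (0.09, mean ratio 0.90). These values describe likeness over 6 arrays only.

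Markers of several cell types differed between the channels as well, where 45.4% of all genes tested were called. The share called was 100% for nephron progenitor, 87.5% for stromal, 85.7% for neuronal, 83.3% for endothelial and 75% for ureteric bud markers. For macrophage (50%) and red blood cell markers (40%) it was near that of all genes tested. All 7 nephron progenitor markers were higher in the Scriptaid-labelled channel, and their summed brightest-probe intensities per replicate were 33300 to 39300 units there, against 15900 to 16700 in the Nullscript-labelled channel. Of 8 stromal markers, 6 were higher in the Scriptaid-labelled channel and 1 in the Nullscript-labelled channel, with sums of 146000 to 154000 labelled Scriptaid against 125000 to 142000 labelled Nullscript. The marker higher in the Nullscript-labelled channel was Col1a1, a collagen gene, whose brightest probe was saturated on 3 arrays in each channel. Without it the stromal sums were 102000 to 109000 labelled Scriptaid against 71100 to 79800 labelled Nullscript. Of 7 neuronal markers, 1 was higher in the Scriptaid-labelled channel and 5 in the Nullscript-labelled channel, with overlapping sums of 7030 to 7670 labelled Scriptaid against 7610 to 8770 labelled Nullscript. Of 6 endothelial markers, 5 were higher in the Scriptaid-labelled channel, with sums of 15600 to 16400 labelled Scriptaid against 8730 to 10300 labelled Nullscript. Every marker of these lists and of the lists that follow was well above background in both channels on all arrays. Of 8 ureteric bud markers, 5 were higher in the Scriptaid-labelled channel and 1 in the Nullscript-labelled channel, with sums of 39000 to 44300 labelled Scriptaid against 32400 to 35100 labelled Nullscript. Of 5 red blood cell markers, 2 were higher in the Nullscript-labelled channel and the other 3 did not pass, with overlapping sums of 26000 to 43200 labelled Scriptaid against 32000 to 48300 labelled Nullscript. The 4 macrophage markers had 1 call in each direction and overlapping sums. The part of these cell types in the members' ratios was not tested.

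**Figure D4:**
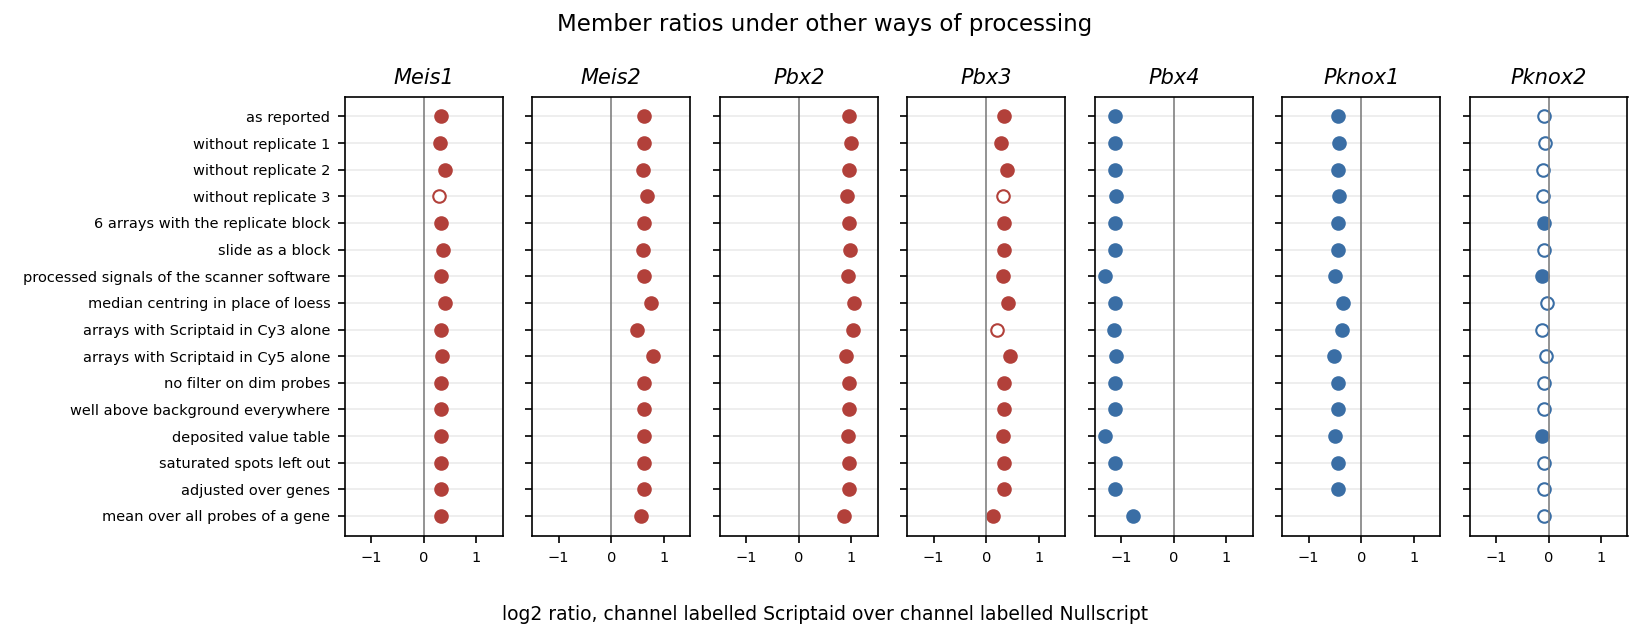
Log2 ratio (Scriptaid-labelled over Nullscript-labelled channel) of the brightest probe of each gene as reported and under each other way of processing (rows); filled points passed at an adjusted p under 0.05 and open points did not. The sign of every gene was kept throughout, and calls changed only for Meis1, Pbx3 and Pknox2.

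Meis2 ranged from 0.48 to 0.79 over the ways of processing, Pbx2 from 0.87 to 1.06, Pbx4 from -1.30 to -0.78 and Pknox1 from -0.52 to -0.34, and these 4 genes passed in each. Meis1 ranged from 0.29 to 0.41 and Pbx3 from 0.13 to 0.45, with the lost calls given above. Pknox2 stayed between -0.13 and -0.03.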

How the data were processed

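Expression was measured in cultured mouse kidney rudiments on 6 two-colour Agilent arrays. The deposited scanner files give, for either channel, a mean and a local background intensity per spot, and the scanner software was Agilent Feature Extraction 9.1.3.1 per the file headers. They also hold the software's processed signals and a deposited log10 ratio. The series value table deposited by the authors holds log10 ratios that equal labelled Scriptaid over labelled Nullscript to within 4.82e-06. Its column medians were -0.00959 to -0.00136, with no further centring.

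Intensities were background-corrected (normexp, offset 50) and loess-normalised per array in limma 3.58.1 under R 4.3.3. Control spots had weight 0 in the loess, outlier-marked spots were dropped and saturated ones kept. Spots of a probe were averaged, signs set to labelled Scriptaid over labelled Nullscript, and the swapped arrays averaged per replicate. Levels are linear intensities after loess and Aquantile scaling, as geometric means of those arrays. Tested probes were well above background on 3 or more of 6 arrays for at least 1 drug. Their means were tested against 0 with lmFit and eBayes (n = 3) and adjusted over all 39392 probes by Benjamini-Hochberg. The number of arrays limits the precision. The dye orientations were compared over 6 arrays with the replicate as a random block.

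Probes were named by accession, current symbol or older symbol in a RefSeq gene table. The labels state that both arrays of a number hold the same biological replicate. The deviations of such arrays from their dye group correlated at 0.61, 0.13 and 0.01 for replicates 1, 2 and 3. Arrays of different replicates gave -0.42 to 0.26, so only replicate 1 lay above that range. The text names every member, up to 4 called genes of largest ratio per related list, drug response genes as a check, and the 3 nearest genes of the 2 members of largest ratio, except for items not reported here. Meis3 was added as a close relative after its value was seen. Members and lists were chosen with earlier results of these data known. The procedure was tested on simulated data. Alternatives were leaving out each replicate, replicate or slide blocks, other signals and normalisation, single dye orientations, filters on dim or saturated spots, the deposited table, and adjustment or averaging by gene.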

Additional observations from a re-analysis of the deposited data

Results flagged for a closer look

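The second probe of Meis2 differed between the dye orientations, with a log2 ratio higher by 0.43 on the Scriptaid-Cy5 arrays (0.75) than on the Scriptaid-Cy3 arrays (0.32). The difference passed limma's test (adjusted p = 0.0207), and both orientations gave a ratio above 0. The call was lost without replicate 1, without replicate 3 and with the processed signals of the scanner software.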

How the results depend on the processing

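No member changed sign in 104 alternative values of the 7 members, of which 98 kept their side of the threshold, 3 lost the call and 3 gained it. Filters on dim or saturated spots, adjustment over genes and the replicate block left each member ratio as it was. Those settings could not change a sign. The deposited table nearly repeats the processed signals, so these are not separate results. The member count of 6 was 4 without replicate 3 (Meis1 and Pbx3 lost), 5 on the Scriptaid-Cy3 arrays alone, and 7 with the processed signals, the deposited table or the replicate block. The share of all tested probes called moved too, from 45.2% to 29.6% without replicate 3 and 37.1% on the Scriptaid-Cy3 arrays alone. It was 45.6% with the processed signals, 45.7% with the deposited table and 47.8% with the replicate block. With that block 18846 probes were called, against 17821, and Pknox2 was the only member gene whose call changed (adjusted p = 0.0367). Leaving out a replicate left 11645 to 16380 probes called, with the fewest without replicate 3, which leaves 2 replicates, and changed the related lists' 47 calls to between 37 and 48. The count of 1 member probe with a dye difference was 0 to 2 when a replicate was left out (0 without replicates 1 or 3, 2 without replicate 2), and 0 with processed signals, all added after the data were seen. The cause was not tested. Other scalings moved the median of all probes by at most 0.04 in size (to -0.04). With 3 replicates, a ratio as small as that of Pknox2 passed or missed according to the setting.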
